A study of Homo sapiens with 6 samples.

Results

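Caveolae are small flask-shaped pits of the plasma membrane, and 7 genes that encode their main structural proteins were followed in MDA-MB-231 cells treated with *Salvia chinensis* Benth (SCH), a sage used as a medicinal herb. CAV1 and CAV2 encode the caveolins, CAVIN1, CAVIN2 and CAVIN3 the cavins, EHD2 an ATPase of the caveolar neck and PACSIN2 a membrane-curving protein. The genes were taken by symbol from the deposited table of 58735 genes, and all 7 of 7 passed the filter on low counts, which kept 14736 genes. They were chosen by their measured fold changes between SCH and vehicle in these same samples, so those fold changes are given as a description, without a test. After SCH, the CAV1 level was 44.4% of the vehicle level and the CAVIN2 level 58.8%, whereas EHD2 stood at 127% and CAVIN1 at 115%.

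MDA-MB-231 is an established human triple-negative breast cancer line, labelled wild type here, and 1 line was studied. Vehicle was given to 3 samples, and the other 3 received SCH for the same 24 h at a dose of 100 mg/l. The study describes the samples of a group as biological repeats. SCH was an aqueous extract of the whole herb, dosed by the weight of raw herb, so no single compound was tested. The labels give RPMI-1640 as the medium and the methods give DMEM. Poly-A mRNA was sequenced to between 16836369 and 20291379 counts per sample. The p-values below measure the spread between these samples.

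The caveolins are hairpin proteins that insert into the inner leaflet of the membrane, assemble into oligomers and bind cholesterol. Cavins form a coat around these oligomers, and CAVIN1 together with CAV1 is needed to make caveolae in most cells. CAV2 depends on CAV1 to reach the cell surface, CAVIN2 and CAVIN3 join the coat through CAVIN1, EHD2 holds caveolae at the membrane and PACSIN2 helps to bend it. Caveolae are abundant in endothelial cells, adipocytes and muscle, and are also prominent in mesenchymal-like cancer lines.

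The label was checked against cell type markers. Of 6 genes expected to be high in this line, 5 were abundant, led by AXL at 293 FPKM (fragments scaled to gene length and to library size) in vehicle and 164 FPKM after SCH. The exception was SPARC, with 1 or 2 counts in each sample. The estrogen receptor gene ESR1, the progesterone receptor gene PGR and the E-cadherin gene CDH1 had at most 6 counts in any sample. The other 4 of the 7 luminal or HER2 markers expected to be low were expressed, with 1225 to 1637 counts for ERBB2, 203 to 347 for EPCAM, 121 to 254 for GATA3 and 60 to 188 for FOXA1. After SCH, FOXA1 and ERBB2 rose (log2 fold changes 1.16 and 0.29) and GATA3 and EPCAM fell (-0.79 and -0.52), with edgeR adjusted p of 4.4e-07, 0.00016, 4.4e-06 and 9.2e-05. The 7 summed to 18.1 ± 0.197 FPKM in vehicle and 17.3 ± 1.01 FPKM after SCH (SD, n = 3). The summed level of the 6 genes expected to be high was 817 ± 13.0 FPKM in vehicle and 579 ± 4.32 FPKM after SCH (SD, n = 3). Of the 5 that were tested, 4 fell, against 29.4% lower among all tested genes (edgeR quasi-likelihood test, adjusted p between 2.5e-13 and 0.00098) and CD44 did not pass (log2 fold change 0.03, adjusted p = 0.55, or 0.14 and 0.011 under scaling by totals alone). The part of this marker shift in the results on the caveolar genes was not tested.

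Markers of the cell types richest in caveolae, and of leukocytes, were low, with KDR the most abundant. Endothelial markers summed to 1.39 ± 0.116 FPKM in vehicle and 1.23 ± 0.0795 FPKM after SCH (SD, n = 3), most of it KDR with 121 to 155 counts per sample, followed by PECAM1 with 15 to 30, while CDH5 had at most 2 counts in any sample. Neither KDR nor PECAM1 passed the test (log2 fold changes -0.23 and 0.16, edgeR adjusted p = 0.13 and 0.70). All 5 adipocyte markers were at or under 3 counts in every sample, with ADIPOQ and LEP at 0 throughout. The 6 muscle markers summed to 0.105 ± 0.0579 FPKM in vehicle and 0.268 ± 0.0785 FPKM after SCH, most of it ACTA1, and MYOD1 and MYOG were at 0 in all samples. Leukocyte markers summed to 0.251 ± 0.0363 FPKM in vehicle and 0.117 ± 0.0800 FPKM after SCH, led in vehicle by PTPRC, which had 34 to 39 counts there and 3 to 9 after SCH. PTPRC fell by the test (log2 fold change -2.75, edgeR adjusted p = 8.8e-07).

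CAV1 and CAV2 lie side by side on chromosome 7 (GRCh38) and are read in the same direction. The deposited interval of CAV1 (ENSG00000105974) is chr7:116524785-116561184, with 4082 exonic bases. CAV2 (ENSG00000105971) is listed at chr7:116287380-116508541, a span of 221 kb with 6926 exonic bases. GENCODE 29, whose coordinates matched those of the files for all 58735 genes, places 15 CAV2 transcripts there. Of these, 3 are protein-coding and lie within 9.15 kb starting 25.4 kb before CAV1, and 8 of the other 12 span more than 200 kb. The CAV2 value therefore sums fragments over coding and noncoding transcripts, and its FPKM is scaled to all of their exons.

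Upstream sequences are shown for the adjacent caveolin genes and, as examples with other motifs, for CAVIN2 and PACSIN2. RefSeq windows of 250 bases before the most upstream transcript start (GRCh38.p14) were matched for 5 of 7 genes, namely CAV1, CAV2, CAVIN2, EHD2 and PACSIN2, and CAVIN1 and CAVIN3 are named only. The windows were searched on both strands for GGGCGG (GC box), CATTCC (TEAD), TGANTCA (AP-1), GTAAACA (forkhead), CCAAT and the CArG box. The CAV1 window, chr7:116524759-116525008 on the plus strand, holds 3 GC boxes, a number reached by 13.9% of 35116 windows of the same length. The CAV2 window, chr7:116499488-116499737 on the plus strand, holds 6 GC boxes, reached by 2.22% of windows, and its GC content of 83.2% is above that of 99.0% of windows. GENCODE annotates 224 of the 250 bases of the CAV1 window and all 250 of the CAV2 window as 5′ UTR of an earlier-starting transcript, so the sites are printed with 6 bases on each side. The capitals mark the GC box or its reverse complement, and each name gives its first base counted back from the RefSeq start.
CAV1 at 180: cgctccCCGCCCtctgct
CAV1 at 92: tttggcGGGCGGccagga
CAV1 at 64: cagccaCCGCCCccctcc
CAV2 at 232: gcgtcgCCGCCCactgca
CAV2 at 167: ggaggtGGGCGGggaggg
CAV2 at 157: ggggagGGGCGGcggggc
CAV2 at 141: gcgccgGGGCGGggctcg
CAV2 at 85: cggccgCCGCCCgggcct
CAV2 at 49: gaggggGGGCGGggccgg

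The CAVIN2 window, chr2:191847089-191847338 on the minus strand, is less GC-rich, at 48% against a median of 58% over all windows. It has no GC box, a motif found in 42.6% of windows, and 1 TEAD match, found in 11.9%. That match starts 16 bases before the RefSeq start, in bases annotated as 5′ UTR, with the TEAD letters in capitals as their reverse complement.
CAVIN2 at 16: gcagctGGAATGcagttc
The PACSIN2 window, chr22:43015150-43015399 on the minus strand, lies outside annotated exons and is given whole, with its 2 GC boxes and 3 CCAAT matches in capitals.
PACSIN2: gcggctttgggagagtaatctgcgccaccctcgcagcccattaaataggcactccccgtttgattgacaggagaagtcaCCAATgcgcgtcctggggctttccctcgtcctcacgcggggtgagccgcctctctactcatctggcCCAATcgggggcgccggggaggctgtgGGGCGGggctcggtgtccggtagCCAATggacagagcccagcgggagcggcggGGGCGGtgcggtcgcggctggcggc
At least 1 CCAAT occurs in 32.0% of windows and 3 or more in 2.93%. The EHD2 window holds 1 GC box. AP-1, forkhead and CArG matches, present in 6.57%, 2.98% and 1.16% of windows, were found in none of the 5 windows, which says only that these letters are not there. A match is a description of the sequence and not a measured site.

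CAV1 had the largest difference of the 7 genes. Its normalized CPM (counts scaled to library size with edgeR's TMM factors) was 429, 419.9 and 456 in the vehicle samples and 172, 197 and 209.7 in the SCH samples. Every SCH sample was below every vehicle sample, and the gap between the groups was wider than the range within either. The log2 fold change was -1.17 (SE 0.059), lower than that of all but 3.57% of the 14736 tested genes. Since RNA came from whole cultures, fewer cells of a kind and less RNA per cell cannot be told apart here.

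CAV2, the partner caveolin next to it, differed little. Its normalized CPM was 82.3, 77.7 and 85.0 in vehicle and 72.3, 75.2 and 76.2 after SCH. The SCH samples were all lower, but the lowest vehicle sample and the highest SCH sample lay close together. The log2 fold change was -0.13 (SE 0.056), and it shrank to -0.03 when samples were scaled by their totals alone, a scaling that moved the median over all tested genes from -0.0034 to 0.10 (log2). Of its exonic bases, 1.10% are shared with the antisense gene AC002066.1, which had 0 to 8 counts per sample. The ratio of CAV1 to CAV2 on the FPKM scale was 8.85, 9.17 and 9.11 in vehicle and 4.05, 4.46 and 4.67 after SCH. The groups did not overlap, and the mean ratio went from 9.04 ± 0.170 to 4.39 ± 0.316 (SD, n = 3).

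**Figure D1:**
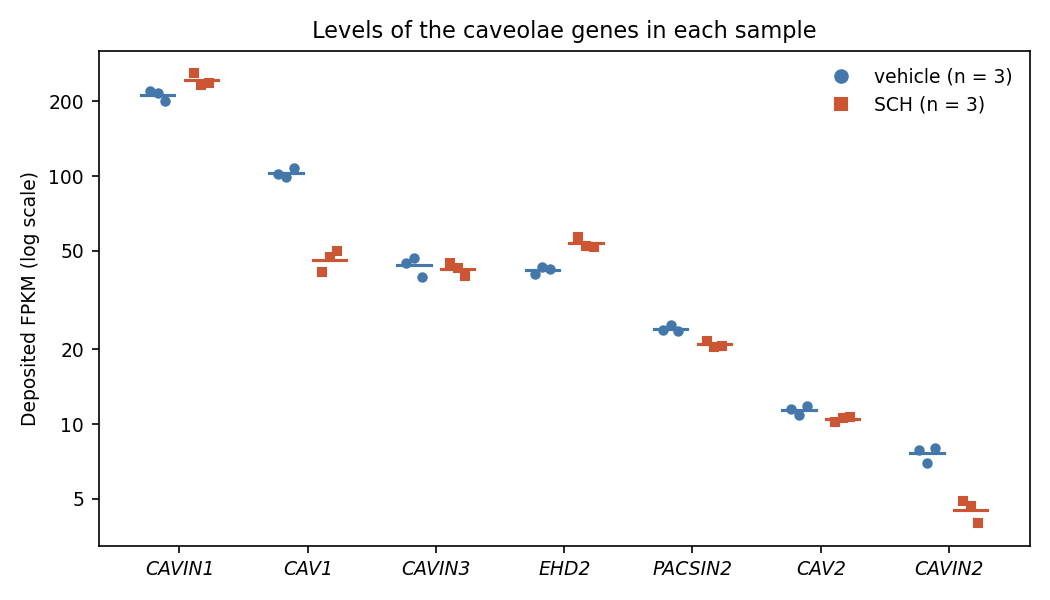
Deposited FPKM (vertical axis, log scale) of the 7 caveolar genes in the 3 vehicle and 3 SCH samples, with each point a sample and each bar the group mean. CAV1 went from 103 to 45.9 FPKM, and the points of CAVIN3 overlap between the groups.

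CAVIN1, the cavin needed for the coat, was the most abundant of the 7 and was higher after SCH. This gene (ENSG00000177469, chr17:42402452-42423517, minus strand) had a normalized CPM of 868, 851 and 793 in vehicle and 1019, 919 and 939 after SCH. All SCH samples were above all vehicle samples. The log2 fold change was 0.20 (SE 0.050), and 0.30 when samples were scaled by their totals alone.

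CAVIN2, also known as SDPR, went the other way. The gene (ENSG00000168497, chr2:191834302-191847255, minus strand) had 513, 418 and 476 counts in vehicle and 282, 289 and 253 after SCH, which is a normalized CPM of 26.3, 23.3 and 26.8 against 16.2, 15.5 and 13.3. The groups were apart, with the highest SCH sample well under the lowest vehicle sample. The log2 fold change was -0.77 (SE 0.091), with the largest standard error of the 7 and the smallest counts. An antisense gene, AC098617.1, shares 7.22% of its exonic bases and had at most 1 count in any sample.

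CAVIN3, which links the coat to signalling proteins, did not separate the groups. The gene (ENSG00000170955, chr11:6318946-6320647, minus strand) had a normalized CPM of 77.4, 81.1 and 67.9 in vehicle and 76.3, 73.6 and 68.4 after SCH. The lowest value of all was a vehicle sample and so was the highest. Its log2 fold change was -0.05 (SE 0.066), and the sign turned to 0.05 under scaling by totals alone, to 0.0028 without vehicle replicate 2 and to 0.00073 without SCH replicate 3. The opposite-strand transcript AC068733.3 covers 33.3% of its exonic bases, with 0 to 6 counts per sample.

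EHD2 and PACSIN2, which act at the neck and on membrane curvature, differed in opposite directions. EHD2 (ENSG00000024422, chr19:47713343-47743134, plus strand) had a normalized CPM of 163, 174 and 172 in vehicle and 229, 211 and 209 after SCH. The SCH samples were all higher, and the log2 fold change was 0.35 (SE 0.051). PACSIN2 (ENSG00000100266, chr22:42835412-43015145, minus strand) had a normalized CPM of 113, 118 and 112 in vehicle and 101, 96.3 and 97.4 after SCH. Its SCH samples were all lower, with a log2 fold change of -0.22 (SE 0.052), or -0.11 under scaling by totals alone. PACSIN2 shares 3.40% of its exonic bases with ARFGAP3 on the same strand, whose log2 fold change was 0.26 (SE 0.067). Fragments in the shared bases cannot be assigned to one of them.

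Counted by the threshold applied to all genes (edgeR quasi-likelihood test, adjusted p under 0.05), 3 of the 7 genes were lower (CAV1, CAVIN2, PACSIN2) and 2 higher (CAVIN1, EHD2). Across all 14736 tested genes 58.7% passed, 29.4% as lower and 29.3% as higher after SCH. In 6 of 7 genes the normalized CPM of the groups did not overlap, 4 of them lower and 2 higher after SCH. Among all tested genes the groups did not overlap in 62.4%, with 31.3% lower and 31.1% higher. These counts belong to the contrast that chose the genes, and nothing is read from them. The median log2 fold change was -0.13 over the 7 genes and -0.0034 over all tested genes.

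**Figure D2:**
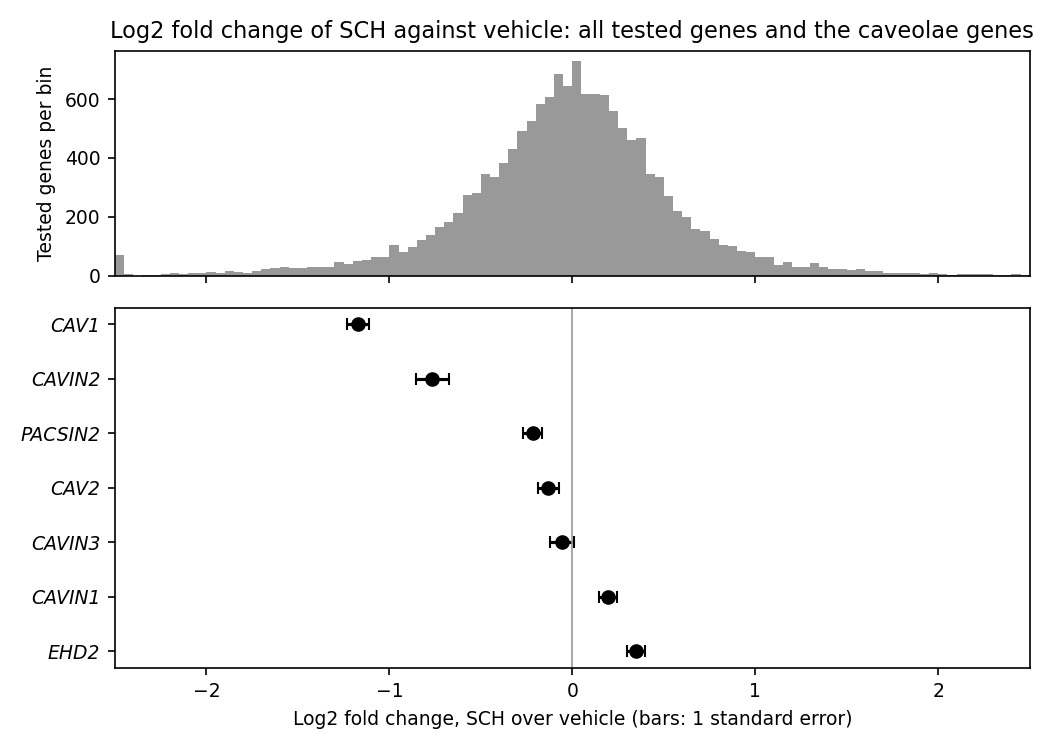
The upper panel is a histogram (genes per bin) of the log2 fold changes (SCH over vehicle) of all 14736 tested genes, with those beyond the axis gathered at its ends, and the lower panel gives the 7 caveolar genes as points with bars of 1 SE. CAV1 at -1.17 and CAVIN2 at -0.77 lie to the left, EHD2 at 0.35 to the right, and CAV2 and CAVIN3 near 0.

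Per length, the 7 genes covered a wide range in vehicle-treated cells. The vehicle FPKM was 211 ± 10.0 for CAVIN1, 103 ± 4.39 for CAV1, 43.6 ± 3.98 for CAVIN3, 41.8 ± 1.45 for EHD2, 24.2 ± 0.754 for PACSIN2, 11.4 ± 0.508 for CAV2 and 7.62 ± 0.561 for CAVIN2 (SD, n = 3). In that order only CAVIN3 and EHD2 overlapped, and each of the other neighbouring pairs was apart in all samples. CAVIN1 was above 99.0% of tested genes in vehicle FPKM and CAV1 above 97.3%, whereas CAVIN2 was above 62.0%.

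After SCH, EHD2 took another place in the order. The FPKM was 243 ± 14.2 for CAVIN1, 53.5 ± 2.87 for EHD2, 45.9 ± 4.36 for CAV1, 42.2 ± 2.48 for CAVIN3, 20.9 ± 0.581 for PACSIN2, 10.5 ± 0.250 for CAV2 and 4.51 ± 0.466 for CAVIN2 (SD, n = 3). EHD2 now stood above CAV1 in all 3 SCH samples, and CAV1 overlapped CAVIN3.

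Ratios of levels within a sample do not depend on how samples are scaled to each other. The ratio of CAVIN1 to CAV1 on the FPKM scale was 2.16, 2.16 and 1.85 in vehicle and 6.31, 4.96 and 4.78 after SCH, without overlap. The ratio of CAV1 to EHD2 was 2.53, 2.31 and 2.55 in vehicle and 0.724, 0.901 and 0.963 after SCH. It was above 1 in every vehicle sample and below 1 in every SCH sample. CAVIN1 to CAVIN2, the ratio within the coat, went in mean from 27.9 ± 2.92 to 54.2 ± 4.88, and EHD2 to PACSIN2 from 1.73 ± 0.0533 to 2.55 ± 0.0688 (SD, n = 3). Each of these ratios holds a gene chosen for its difference, so they are descriptions as well.

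**Figure D3:**
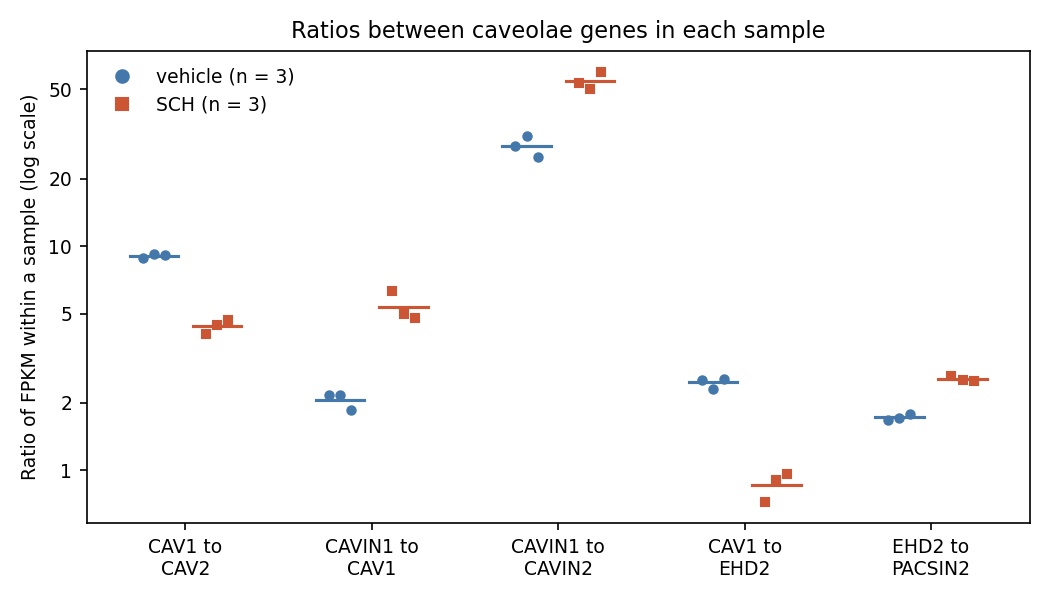
Ratios of deposited FPKM between caveolar genes (vertical axis, log scale) in each of the 3 vehicle and 3 SCH samples, with bars at the group means. The CAV1 to CAV2 and CAV1 to EHD2 ratios are lower after SCH and the CAVIN1 to CAV1, CAVIN1 to CAVIN2 and EHD2 to PACSIN2 ratios higher, without overlap between the groups.

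The summed caveolins were lower and the summed cavins higher after SCH, while the sums over all 7 genes overlapped. The summed FPKM of CAV1 and CAV2 was 114 ± 4.86 in vehicle and 56.4 ± 4.61 after SCH. The summed FPKM of the 3 cavins was 263 ± 13.4 in vehicle and 290.1 ± 16.2 after SCH, with the groups apart. Over all 7 genes the sum was 443 ± 8.76 FPKM in vehicle and 421 ± 15.4 FPKM after SCH, and the groups overlapped (SD, n = 3). CAV1 made up 23.3% of that sum in vehicle and 10.9% after SCH, and CAVIN1 47.7% and 57.8%.

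The muscle paralogs of the family were rare. CAV3, the muscle caveolin, had 1 count in 1 SCH sample and 0 in the other samples, and was not tested. CAVIN4, the muscle cavin, had 54, 32 and 39 counts in vehicle and 17, 23 and 28 after SCH. The groups were apart and CAVIN4 fell (log2 fold change -0.87, SE 0.26, edgeR adjusted p = 0.0070). Without vehicle replicate 1, the highest sample, the log2 fold change was -0.68 and the call was lost (edgeR adjusted p = 0.064).

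Relatives of EHD2 and PACSIN2 and the dynamins, GTPases that cut vesicles from the membrane, were 8 genes, of which 6 could be tested. Of these 1 rose, 3 fell and 2 did not pass, beside 29.3% higher and 29.4% lower over all tested genes. Their median log2 fold change was -0.19. EHD1, an ATPase of endosomal recycling, had a normalized CPM of 336, 348 and 324 in vehicle and 397, 389.96 and 381 after SCH and rose (log2 fold change 0.21, SE 0.047, edgeR adjusted p = 0.00044). PACSIN3, a paralog of PACSIN2, fell from a mean of 44.1 ± 4.38 to 29.1 ± 1.64 normalized CPM (log2 fold change -0.60, SE 0.077, edgeR adjusted p = 4.9e-07). EHD4 fell slightly (log2 fold change -0.18, edgeR adjusted p = 0.0043), a call that was lost without SCH replicate 2 (adjusted p = 0.059) and under scaling by totals alone (adjusted p = 0.19). EHD3 and PACSIN1 had too few counts to test.

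Other scaffold proteins of membrane domains, among them the flotillins of cholesterol-rich rafts, were 8 genes, of which 7 were tested. Of these, 4 fell and 2 rose, beside 29.4% and 29.3% of all tested genes, and the median log2 fold change was -0.18. FLOT1, a flotillin, fell (log2 fold change -0.35, SE 0.050, edgeR adjusted p = 2.7e-06), while its partner FLOT2 rose (log2 fold change 0.18, SE 0.053, edgeR adjusted p = 0.0069). ERLIN1, which acts in the endoplasmic reticulum, fell from 140.4 ± 6.27 to 98.1 ± 3.77 normalized CPM (log2 fold change -0.52, edgeR adjusted p = 1.7e-08). STOML2, a mitochondrial member of the family, fell as well (log2 fold change -0.43, edgeR adjusted p = 1.0e-07). MAL was at 0 counts in all samples.

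In a list of genes linked to caveolin-1 phosphorylation or to the tie of caveolae to actin, all 10 genes were tested. Of these 5 passed, all of them higher, beside 58.7% passed and 29.3% higher over all tested genes. By the edgeR test 0 fell, beside 29.4% lower over all tested genes. By DESeq2 0 were lower, beside 3922 of the 14736 tested genes. At an unadjusted p under 0.05 0 were lower too, a count for which the share over all genes was not taken. The median log2 fold change was 0.14. INPPL1, an inositol phosphatase, rose from 161 ± 6.13 to 243 ± 12.6 normalized CPM (log2 fold change 0.60, SE 0.052, edgeR adjusted p = 8.2e-10). The kinase gene ABL2 and the formin gene DIAPH1 rose less, with log2 fold changes of 0.29 and 0.27 (edgeR adjusted p = 1.6e-05 and 4.9e-05). Filamin A, encoded by FLNA and the most abundant of the list, was at 4576 ± 169 normalized CPM in vehicle and 4486 ± 285 after SCH, and did not pass (log2 fold change -0.03, edgeR adjusted p = 0.64), with a sign that turned to 0.02 without SCH replicate 3.

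Of 12 membrane-associated proteins reported in caveolae, mostly receptors, channels and transporters, 9 could be tested, and NOS3, CD36 and KCNMA1 could not. All 9 passed, 6 lower and 3 higher, beside 29.4% and 29.3% of all tested genes, and 7 to 9 passed over the alternatives. The median log2 fold change was -0.40. ROR1, a receptor tyrosine kinase-like protein, had a normalized CPM of 43.4, 42.2 and 49.3 in vehicle and 17.5, 14.9 and 17.8 after SCH (log2 fold change -1.42, SE 0.084, edgeR adjusted p = 1.3e-12). The HDL receptor gene SCARB1 had 111, 112 and 110.3 in vehicle and 53.1, 54.2 and 53.9 after SCH (log2 fold change -1.05, SE 0.054, edgeR adjusted p = 1.4e-13). In both genes the SCH samples were far below the vehicle samples. IGF1R, the insulin-like growth factor receptor, fell by 0.73 on the log2 scale (edgeR adjusted p = 6.1e-08). The 3 that rose were the cation channel gene TRPC1 and the receptor genes BMPR2 and TGFBR1, with log2 fold changes of 0.96, 0.39 and 0.36 (edgeR adjusted p = 2.4e-07, 3.2e-05 and 1.2e-05).

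All 18 transcription factors reported to act on caveolar genes could be tested, of which 7 rose, 6 fell and 5 did not pass, beside 29.3% higher and 29.4% lower over all tested genes. The median log2 fold change was 0.07. PPARG, the adipocyte nuclear receptor, fell from 39.5 ± 3.14 to 21.3 ± 2.72 normalized CPM (log2 fold change -0.89, SE 0.087, edgeR adjusted p = 6.4e-09). SREBF2 and SREBF1, the regulators of cholesterol and fatty acid synthesis, fell by 0.47 and 0.38 on the log2 scale (edgeR adjusted p = 2.7e-08 and 4.5e-05). The hypoxia-inducible factor EPAS1 rose from 44.9 ± 0.385 to 80.8 ± 6.87 normalized CPM (log2 fold change 0.85, SE 0.065, edgeR adjusted p = 1.1e-10). HIF1A and the shear-stress responsive factor KLF2 rose too, with log2 fold changes of 0.34 and 0.53 (edgeR adjusted p = 2.2e-05 and 8.0e-06). Under scaling by totals alone the split was 9 higher and 3 lower.

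Clathrin-coated pits, the other main route of uptake, were described by their coat and adaptor genes. Of 21 tested genes of 22, 10 rose, 2 fell and 9 did not pass, which is 47.6% higher and 9.52% lower beside 29.3% and 29.4% of all tested genes. The median log2 fold change was 0.13. SNX9, which bends membrane at the pit, rose from 30.2 ± 2.11 to 46.3 ± 2.40 normalized CPM (log2 fold change 0.62, SE 0.071, edgeR adjusted p = 9.2e-08). The adaptor genes EPN2 and AP2A1 rose with log2 fold changes of 0.60 and 0.38 (edgeR adjusted p = 4.8e-08 and 3.4e-07), and 19.5% of the exonic bases of EPN2 are shared with the antisense gene AC124066.1 and 1.48% with AC106017.2 on the same strand. AP2B1 fell by 0.26 on the log2 scale (edgeR adjusted p = 4.8e-05). AP2A2 was the other gene that fell (log2 fold change -0.13, edgeR adjusted p = 0.037), and it was past the threshold in 5 of 15 alternatives, with an adjusted p between 0.011 and 0.64. The heavy chain gene CLTC had 582, 598 and 668 normalized CPM in vehicle and 657, 700.1 and 669 after SCH, and it rose by the test although the groups overlapped (log2 fold change 0.13, SE 0.052, edgeR adjusted p = 0.031). That call was lost without vehicle replicate 1, vehicle replicate 2 or SCH replicate 2 (adjusted p = 0.19, 0.10 and 0.12), under upper-quartile scaling (0.11) and with limma on the FPKM values (0.061 to 0.062).

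**Figure D4:**
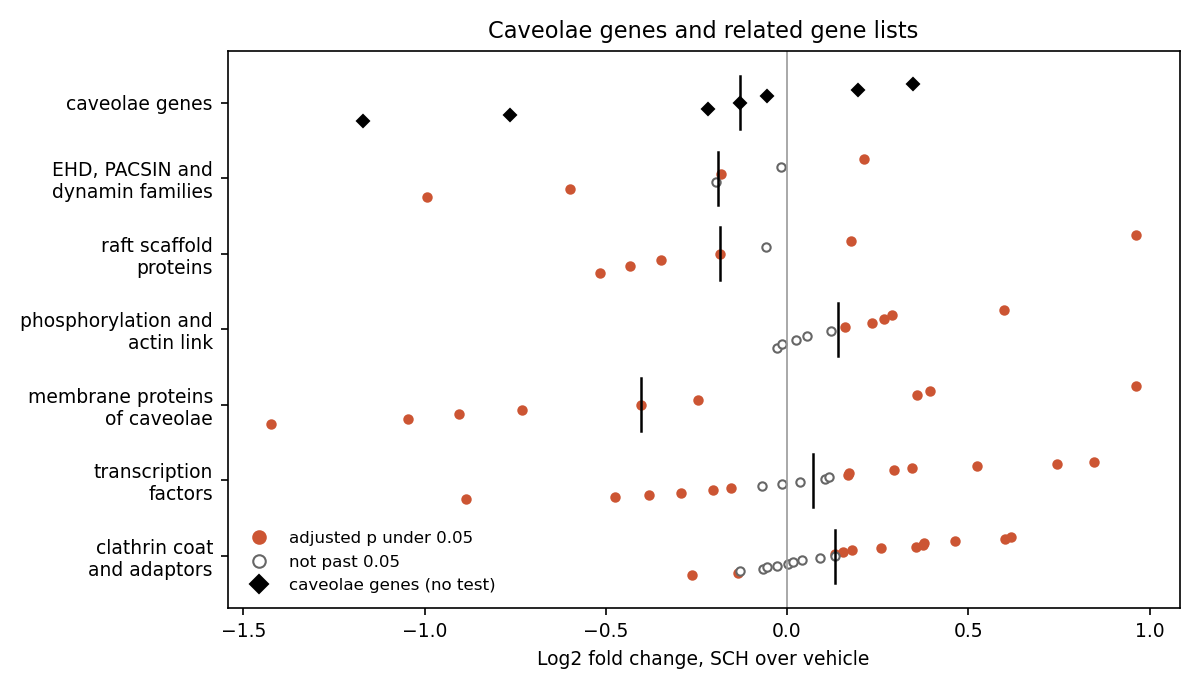
Log2 fold change (SCH over vehicle, horizontal axis) of each tested gene of the caveolar genes (diamonds, no test) and of 6 related lists, with filled circles for an adjusted p under 0.05, open circles for the rest and a vertical line at the median of each list. The caveolar membrane proteins reach from -1.42 to 0.96, and the clathrin genes lie between -0.26 and 0.62.

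The neighbours of the CAV1 and CAV2 locus were compared to see whether the difference extended along the chromosome. Within 1000 kb there were 8 other protein-coding genes, of which 4 were tested and 3 rose, beside 29.3% of all tested genes. The median log2 fold change was 0.18. By the edgeR test 0 fell, beside 29.4% lower over all tested genes. By DESeq2 0 were lower, beside 3922 of the 14736 tested genes. At an unadjusted p under 0.05 0 were lower as well, but the share over all genes was not counted there. TES, a focal adhesion gene that starts 314 kb before CAV1, had a normalized CPM of 95.7, 97.9 and 98.7 in vehicle and 112, 114 and 116 after SCH (log2 fold change 0.23, SE 0.051, edgeR adjusted p = 0.00052). CAPZA2, an actin-capping subunit starting 286 kb after CAV1, rose by the test (log2 fold change 0.22, SE 0.064, edgeR adjusted p = 0.0042), although one vehicle sample at 107 was above the lowest SCH sample at 106. MET, a receptor tyrosine kinase gene starting 148 kb after CAV1, had 329, 325 and 358 in vehicle and 369, 388 and 362 after SCH (log2 fold change 0.14, SE 0.050, edgeR adjusted p = 0.016). That call was lost without vehicle replicate 1 (adjusted p = 0.078), without vehicle replicate 2 (0.076), without SCH replicate 2 (0.089) and under upper-quartile scaling (0.060). ST7, at 428 kb, did not pass (log2 fold change -0.03, edgeR adjusted p = 0.75).

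**Figure D5:**
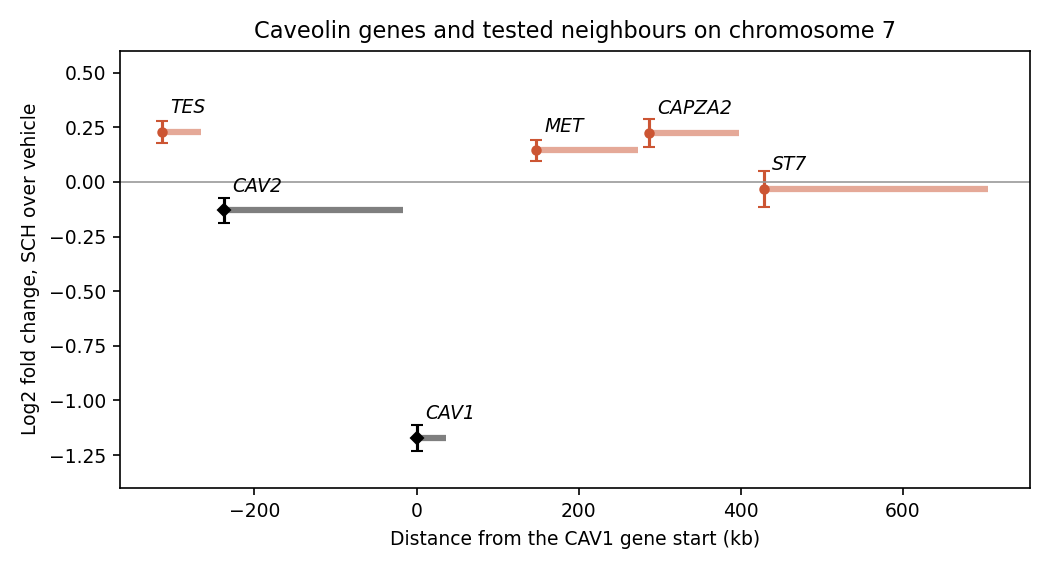
Log2 fold change (SCH over vehicle, vertical axis, with bars of 1 SE) of tested protein-coding genes around CAV1 against the distance of their start from that of CAV1 in kb (horizontal axis), with horizontal bars for the length of each gene and CAV2 placed at the start of its deposited interval. CAV1 lies at -1.17, and the other genes, CAV2 included, lie between -0.13 and 0.23.

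Among the genes most like CAV1 across the 6 samples, by Pearson correlation of log2 CPM over 10714 genes with a mean of at least 100 counts, were RBBP4 and AC132008.2, both with r = 0.999 and rho = 1. A step between the treatment groups alone gives a high r, and 1619 genes (15.1%) had r of at least 0.95 with CAV1. CAV2 ranked 2672 by r (0.885), yet it put the 6 samples in the same order as CAV1 (rho = 1). CAVIN2 and PACSIN2 ranked 1963 and 2308 (r = 0.934, rho = 0.771 and r = 0.914, rho = 0.6). EHD2 and CAVIN1 ran opposite to CAV1 (r = -0.979, rho = -0.943 and r = -0.909, rho = -0.886). They ranked 10000 and 8389 of the 10714 genes, so many genes ran more opposite. CAVIN3 was unrelated in order (r = 0.154, rho = -0.143).

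For CAV2 the genes most alike were MTATP6P1, a mitochondrial pseudogene in the nuclear genome (r = 0.997), RPL9 (r = 0.995) and SGO2 (r = 0.995), and 151 genes (1.41%) had r of at least 0.95. For CAVIN1 they included MAFG (r = 0.997) and SLC12A7 (r = 0.994), and 195 genes (1.82%) reached 0.95. EHD2 had r = 0.878 with CAVIN1. All of these correlations are over the same 6 libraries in 2 groups and are descriptions.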

How the data were processed

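The authors deposited raw counts per gene in one table and FPKM values per sample, for 3 vehicle and 3 SCH samples. The submitters' processing notes name CASAVA 1.8, HISAT2 2.0.5, featureCounts 1.5.0-p3, DESeq2 1.20.0 and the GRCh38 build, with no role or order. The strand setting and the annotation are not given in the sources used here, so antisense reads cannot be told apart. Deposited FPKM values were proportional to count over gene length, with a scale of 0.937 to 1.008 times that of the total count.

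Raw counts entered edgeR 4.0.16, run under R 4.3.3. TMM normalization, filterByExpr and the quasi-likelihood test of SCH against vehicle were applied without covariates, with Benjamini-Hochberg adjustment over all 14736 tested genes and a threshold of 0.05. Standard errors were derived from the F statistic, as the size of the log2 fold change over its square root. A floor of 3 counts corresponds to 0.148 to 0.178 CPM, and such floors cover counting error only. The common biological coefficient of variation was 5.17%. Libraries of a group varied by more than counting error (chi-square of 2.12 to 5.75 times its degrees of freedom), so none was counted as a copy. The fit was tested on simulated data of 14529 genes. Changes of 0.5 on the log2 scale were recovered for 72 of 99 genes and changes of 1 for 87 of 99. Of the calls, 6.47% were false. Only these few genes were changed there, in equal numbers up and down, whereas 58.7% of tested genes passed in the data. The recovered and false shares therefore describe the simulation and not the real contrast.

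The 7 caveolar genes, the lists and the tests were chosen with earlier results of these data known. Named were the 7 genes and their muscle paralogs, up to 3 tested genes of each list with the smallest p in each direction (mean count of at least 100), every tested neighbour within 1000 kb, and the 3 genes most correlated with CAV1, CAV2 and CAVIN1, of which some are not reported here. FLNA, CLTC and the markers were named beyond this rule, after their values were seen. The lists were written from general knowledge. The 15 alternatives fitted were other normalizations, no filter on low counts or 10 counts in every sample, a replicate block, leaving out each sample, DESeq2 1.42.0, and limma 3.58.1 on log2(FPKM + 1) and log2(FPKM + 0.1).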

Additional observations from a re-analysis of the deposited data

How the results depend on the processing

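Over 15 alternatives, 6 of the 7 caveolar genes kept their sign. The log2 fold change was -1.22 to -1.07 for CAV1, -0.82 to -0.65 for CAVIN2, -0.16 to -0.03 for CAV2, -0.25 to -0.11 for PACSIN2, 0.16 to 0.30 for CAVIN1, 0.31 to 0.45 for EHD2 and -0.12 to 0.05 for CAVIN3. Scaling by totals alone moved the median of the 7 genes from -0.13 to -0.028 and that of all tested genes from -0.0034 to 0.099, and 62.6% of all calls were then higher after SCH, against 49.9% with TMM. Of 40 genes named with a test and compared over the alternatives, 32 kept direction and side of the threshold in every alternative. EHD4, AP2A2, MET, ST7, CAVIN4, FLNA, CLTC and CD44 did not. KDR, PECAM1 and PTPRC were not among the 40, and their tests were not compared over the alternatives. ST7 turned to 0.070 under scaling by totals alone, and leaving out single samples moved it between -0.084 and 0.061. FLNA turned to 0.075 under that scaling, and lay between -0.073 and 0.023 with a sample left out. Of the muscle paralogs, between 0 and 1 gene passed when a sample was left out. Across all genes 8650 passed, 7809 to 8489 with a sample left out, 7919 with DESeq2 (7912 of them shared) and 7026 at an adjusted p under 0.01. Same-numbered samples did not deviate together (r = 0.046, -0.022 and 0.022), so no pairing by number was seen. With 3 samples per group a weak pairing could be missed. With a replicate block 8705 genes passed, all 7 caveolar genes stayed on the same side of the threshold and 0 of the 40 other calls changed. Over the alternatives and the threshold of 0.01, between 4 and 6 of the 7 caveolar genes passed, beside 7026 to 8814 of all genes. With a sample left out it was 5 to 6, beside 7809 to 8489 of all genes. In the main fit 58.7% of all tested genes passed. As this contrast chose the 7 genes, nothing is read from their counts. At this depth CAV3, MAL, EHD3 and PACSIN1 could not be tested. The causes of these shifts were not tested.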
